A study of Mus musculus with 48 samples.

Results

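The major urinary protein (Mup) genes Mup1, Mup3, Mup7, Mup11, Mup17, Mup20 and Mup21 were followed across the livers of 48 mice in a table of read counts with 55414 gene rows. These 7 genes were listed by name and matched to rows by symbol. The list was selected on measured values of these mice, namely the differences after castration and between intact testes and ovaries, so those differences are described here and not tested. A row was found for 6 of the 7 genes: Mup1 (ENSMUSG00000078683), Mup3 (ENSMUSG00000066154), Mup7 (ENSMUSG00000073842), Mup11 (ENSMUSG00000073834), Mup20 (ENSMUSG00000078672) and Mup21 (ENSMUSG00000066153). The identifier paired with Mup17 (ENSMUSG00000089681) matched no row, so Mup17 has no expression value below and enters with its sequence only. A further 26 rows carried the symbol of another Mup gene or pseudogene.

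The livers came from FCG (core genotypes) mice, in which the testis-determining gene Sry is deleted from the Y chromosome and carried by an autosomal transgene, so that gonad type and sex chromosomes vary separately. Mice of the genotypes XX and XY- developed ovaries (XX Ov, XY Ov), and mice of the genotypes XX;SryTg and XY-;SryTg developed testes (XX Te, XY Te). Each genotype was studied with intact gonads (Intact) or after gonadectomy at 75 days of age (GDX), giving 8 groups of 6 mice. Every mouse was fed a high-fat diet (HFD) with 60% of calories from fat, begun at 15 to 17 weeks of age, for 11 weeks in the Intact groups and 15 weeks in the GDX groups, as the sample labels give it. The methods text of the study gives other durations of HFD for both cohorts. Loss of the gonads, weeks of HFD and library make-up therefore changed together between Intact and GDX mice and cannot be told apart in these comparisons.

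Major urinary proteins are small lipocalins that hepatocytes secrete into the blood and the kidney passes into the urine, where they bind and slowly release volatile pheromones and act as scent signals themselves. Their genes lie side by side in a cluster on mouse chromosome 4 that grew by repeated duplication, so several copies are almost identical. In mouse liver they are known for higher expression in males, under the control of androgen, the pulsatile male pattern of growth hormone acting through the growth hormone receptor and STAT5B, thyroid hormone and glucocorticoids.

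Near-identity of the copies decides which reads can be counted, so the coding sequences are shown first. The library reads were 50 bases long. Of 497 windows of 50 bases in the Mup11 coding sequence, 204 occurred whole in Mup1, Mup7 and Mup17. From these, the window shown was picked because Mup3, Mup20 and Mup21 differed most there, so it does not stand for the whole coding sequence. Over the same 50 coding bases the genes Mup1, Mup7 and Mup17 (coding bases 163 to 212) and Mup11 (166 to 215) had the same sequence. It was held by 12 Mup genes in the GENCODE protein-coding transcripts of the mouse assembly NCBIM37. Mup3 (175 to 224) and Mup21 (166 to 215) shared another sequence with 11 differences from Mup11, and Mup20 (166 to 215) had a sequence of its own with 9 differences. Capitals mark the bases that differ from Mup11, and the sequences read 5′ to 3′.
Mup1, Mup7, Mup11 and Mup17: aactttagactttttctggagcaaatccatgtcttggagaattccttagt
Mup3 and Mup21: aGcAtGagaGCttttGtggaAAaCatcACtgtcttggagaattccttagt
Mup20: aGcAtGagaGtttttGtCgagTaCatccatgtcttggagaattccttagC

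Over whole coding sequences, Mup1, Mup7, Mup11 and Mup17 were 98.4% to 99.1% identical to each other, and Mup3 and Mup21 were 94.8% identical. The lowest identity among the 21 pairs was 82.7%, between Mup3 and Mup7, and the median was 90.1%. Of all 50-base windows of a transcript, the share found in no other protein-coding gene was 5.24% for Mup1, 5.69% for Mup7, 11.0% for Mup11 and 21.9% for Mup17. The same share was 84.1% for Mup3, 80.9% for Mup21 and 95.3% for Mup20. A window could be shared with up to 17 other genes, and no window of the 7 genes occurred in a protein-coding gene outside the Mup family. Pseudogenes and non-coding genes were not searched, so the shares of windows found in no other gene are upper limits. Because only reads placed on a single gene were counted, the values of Mup1, Mup7 and Mup11 rest on a small part of each transcript. They are uncertain as gene-specific levels. By these upper limits, the values of Mup3, Mup20 and Mup21 can rest on most of the transcript.

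Promoter sequences were given by RefSeq for Mup3, Mup7, Mup11, Mup17 and Mup21 on the assembly GRCm38.p6. The 250 bases before the start site are printed for Mup11 as the example of the near-identical copies and for Mup3 and Mup21 as the more distant pair, all on the minus strand of chromosome 4. Mup11 lies at chr4:60662396-60662645, Mup3 at chr4:62087318-62087567 and Mup21 at chr4:62150842-62151091. Capitals mark ATCAAT, the core bound by the ONECUT and CUX families of liver transcription factors, a motif chosen after these sequences were seen.
Mup11: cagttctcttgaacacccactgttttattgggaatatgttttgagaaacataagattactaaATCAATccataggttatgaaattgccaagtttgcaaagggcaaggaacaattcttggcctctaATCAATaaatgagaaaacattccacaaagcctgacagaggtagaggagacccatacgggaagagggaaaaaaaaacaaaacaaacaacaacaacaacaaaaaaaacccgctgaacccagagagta
Mup3: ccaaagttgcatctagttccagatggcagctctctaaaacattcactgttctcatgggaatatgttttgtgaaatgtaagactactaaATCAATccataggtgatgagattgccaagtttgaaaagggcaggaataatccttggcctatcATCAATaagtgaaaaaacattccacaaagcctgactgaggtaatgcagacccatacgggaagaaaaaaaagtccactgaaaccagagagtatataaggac
Mup21: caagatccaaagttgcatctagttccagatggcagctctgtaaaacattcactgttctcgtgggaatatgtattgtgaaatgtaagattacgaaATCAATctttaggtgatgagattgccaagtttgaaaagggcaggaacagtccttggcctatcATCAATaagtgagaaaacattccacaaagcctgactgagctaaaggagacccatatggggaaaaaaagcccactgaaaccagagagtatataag

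Each of the 5 promoters held 2 copies of ATCAAT. The motif was found on either strand in 14 of 14 Mup promoters and in 7.54% of all 32851 promoters in windows from 250 bases before to 50 bases after the start. The TATA box letters TATATAA occurred in 13 of the 14 Mup promoters, Mup7 being the exception among the 5, and in 3.24% of all promoters. In Mup11 this match begins 2 bases before the start and runs past the printed bases. The ATCAAT copies begin 82 and 19 bases before the annotated start in Mup7, against 188 and 125 in Mup11. The Mup7 window is thus placed differently, and its result says only that TATATAA is not in this window. The steroid receptor core TGTTCT occurred in Mup3 and Mup21 and in no other of the 14, against 19.0% of all promoters. The STAT core TTCNNNGAA was found in 0 of the 14 and in 8.3% of all promoters, which says only that these letters are not in this window. No match of one motif overlapped a match of another in the 5 promoters, and a match is a description of letters, not of a bound site.

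Libraries held 13071874 to 20045141 reads counted on genes (median 16577748), and 3 reads corresponded to 0.150 to 0.230 CPM, the read count of a gene scaled to a common total of gene reads. The 5 hepatocyte markers (Alb, Apoa1, Ttr, Tat, Cyp2e1) were all found and summed to between 66193 and 129299 CPM in every mouse, and none of the markers found for other liver cell types was at 0 in a whole group. Xist was at 123 CPM or more in every XX mouse and at 8.36 CPM or less in every XY mouse, and 4 Y-linked genes lay at 3.88 CPM or less in XX mice and at 11.5 CPM or more in XY mice. Reads outside annotated genes made up 3.47% to 6.20% of all reads in the Intact groups and 8.52% to 11.3% in the GDX groups, and their part in the Intact to GDX differences was not tested. In whole liver, fewer cells of a type and less RNA per cell cannot be told apart.

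In mice with intact testes the 6 measured Mup genes had their highest medians. The 4 GDX groups had the lowest medians for Mup1, Mup3, Mup7 and Mup11, whereas for Mup20 and Mup21 the XX Te GDX median lay above those of mice with intact ovaries, with overlapping ranges. Levels are given per gene as the group median with the lowest and highest of 6 mice, in CPM, and each gene is compared with itself only, since CPM is not scaled to transcript length. Because the genes were listed for such differences, the order of the groups is a description.

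Mup11 is one of the near-identical central copies. Its CPM median was 856 (246 to 2769.8) in XY Te Intact mice and 196 (31.4 to 372) in XX Te Intact mice. It was 5.98 (1.41 to 70.4) in XY Ov Intact and 4.21 (1.39 to 14.4) in XX Ov Intact mice. After GDX it was 0.726 (0.393 to 1.95) in XY Te, 2.48 (1.40 to 26.3) in XX Te, 1.98 (0.201 to 2.43) in XX Ov and 0.586 (0.383 to 2.52) in XY Ov mice. Every mouse with intact testes lay above every mouse of the same sex chromosomes that had intact ovaries or had been castrated. The Te Intact groups overlapped each other, and neighbouring groups further down the order overlapped as well.

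Mup7, the gene whose profile lay nearest to that of Mup11, had a CPM median of 2391 (304 to 6296) in XY Te Intact and 462 (44.5 to 1470.3) in XX Te Intact mice. The medians with intact ovaries were 20.8 (8.94 to 35.7) in XY and 17.5 (4.02 to 47.97) in XX mice. After GDX they were 3.30 (1.61 to 3.95) in XY Te, 8.70 (2.83 to 49.4) in XX Te, 4.79 (3.48 to 6.99) in XX Ov and 2.80 (2.31 to 7.56) in XY Ov mice. One XX Te GDX mouse, at 49.4 CPM, lay above the lowest XX Te Intact mouse, and the XY Te groups did not overlap.

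Mup1, whose row rested on few reads outside the Te Intact groups, had a CPM median of 113 (16.5 to 305) in XY Te Intact and 29.0 (3.87 to 88.3) in XX Te Intact mice. It was 2.08 (0.622 to 4.09) in XY Ov Intact and 1.70 (0.381 to 4.79) in XX Ov Intact mice. After GDX it was 0.316 (0.174 to 0.790) in XY Te, 1.28 (0.391 to 7.30) in XX Te, 0.464 (0.334 to 1.06) in XX Ov and 0.382 (0.213 to 0.861) in XY Ov mice. In XY Te GDX and XY Ov GDX livers these levels stood for 3 to 14 reads per mouse, close to the 3-read limit, so differences among GDX groups were poorly resolved for Mup1.

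Mup20 encodes darcin, a male urinary protein that attracts females. Its CPM median was 11418 (1812 to 17597) in XY Te Intact and 4514 (998 to 7993) in XX Te Intact mice. It was 212 (89.3 to 353) in XY Ov Intact and 248 (54.4 to 360.5) in XX Ov Intact mice. After GDX it was 41.5 (20.6 to 215) in XY Te, 271 (63.9 to 359.8) in XX Te, 140.2 (48.4 to 436) in XX Ov and 33.3 (28.6 to 45.1) in XY Ov mice. The Te Intact groups lay wholly above every other group, and the XX and XY Ov GDX groups did not overlap.

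Mup21, in sequence the closest relative of Mup3, had a CPM median of 309 (171 to 580.0) in XY Te Intact and 288 (95.9 to 409.8) in XX Te Intact mice. It was 12.7 (6.79 to 36.0) in XY Ov Intact and 15.6 (9.85 to 18.7) in XX Ov Intact mice. After GDX it was 7.64 (3.65 to 16.5) in XY Te, 19.4 (6.26 to 42.5) in XX Te, 12.5 (8.55 to 15.8) in XX Ov and 6.31 (5.65 to 8.46) in XY Ov mice. Both Te Intact groups lay above all other mice, and after GDX the XX and XY groups with former ovaries did not overlap.

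Mup3 is the gene of the 7 with the lowest sequence identity to Mup7. Its CPM median was 21799 (5879.8 to 28361) in XY Te Intact and 12006 (5031 to 20943) in XX Te Intact mice. With intact ovaries it was 5285 (3674 to 9757) in XY and 4818 (1896 to 11960.4) in XX mice. After GDX it was 1358 (1077 to 1479) in XY Te, 1848 (1257 to 3012) in XX Te, 1427 (1169 to 1839) in XX Ov and 1245 (998 to 1505) in XY Ov mice. Intact and GDX mice of the same genotype did not overlap in any of the 4 genotypes, while mice with intact testes and mice with intact ovaries did overlap.

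**Figure D1:**
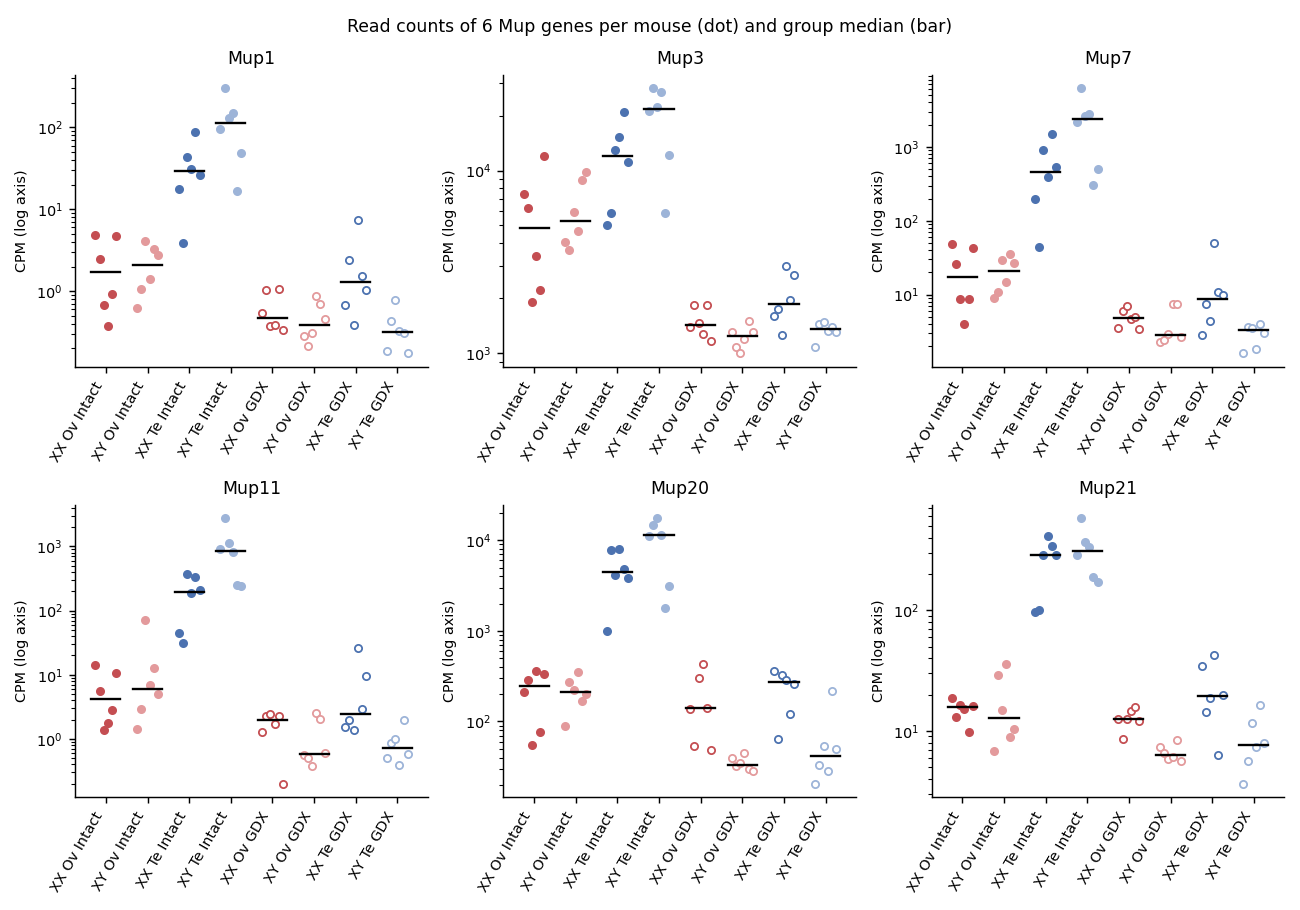
CPM of the 6 measured Mup genes on a log axis in each of 8 groups, with a dot per mouse (filled for Intact, open for GDX) and a bar at the group median of 6 mice. The XY Te Intact median is the highest of the 8 in all 6 panels, and Mup3 spans the narrowest range, from a median of 1245 CPM in XY Ov GDX to 21799 CPM in XY Te Intact mice.

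The highest and lowest values of different Mup genes often came from the same mouse. In XY Te Intact livers replicate 2 had the highest value for 5 of the 6 genes and replicate 5 the lowest for 4. In XX Te GDX livers replicate 4 was the highest for 5 of the 6 genes, and in XX Ov GDX livers replicate 6 was the lowest for 5. Within the Te Intact groups the highest mouse exceeded the lowest 33.0-fold for Mup7 in XX mice and 3.39-fold for Mup21 in XY mice.

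As a share of the reads counted on genes, the 6 Mup rows together had a median of 3.93% (0.845% to 5.32%) in XY Te Intact and 1.73% (0.639% to 2.80%) in XX Te Intact livers. The medians were 0.566% in XY Ov Intact and 0.518% in XX Ov Intact livers, and between 0.129% and 0.204% in the 4 GDX groups. With all Mup rows in place of the 6, the XY Te Intact median was 4.04%. The read shares in this paragraph are not scaled to transcript length, and reads with several alignments are left out of them. Mup1, Mup7 and Mup11 have few windows of their own, and Mup3 and Mup20 have mostly their own. The shares thus describe counted reads and not the make-up of Mup transcripts. Mup3 made up a median of 61.2% of the reads on the 6 rows in XY Te Intact and 69.2% in XX Te Intact livers, and 89.0% to 96.3% in the other 6 groups. Mup20 made up 27.6% and 23.2% in the XY and XX Te Intact groups, and 2.82% to 8.50% in the others.

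Reads with several alignments took a larger share in Intact than in GDX livers of each genotype. Reads with several alignments made up 15.7% ± 2.95 of all reads (SD, n = 6) in XY Te Intact and 9.38% ± 0.246 in XY Te GDX livers, a difference of 6.36 percentage points (exact two-sided permutation test, p = 0.00216, Benjamini-Hochberg adjusted p = 0.00433 over 4 comparisons). In XX Te mice the shares were 13.4% ± 0.902 Intact and 10.3% ± 0.481 GDX, a difference of 3.11 points (exact permutation test, p = 0.00216, adjusted p = 0.00433). The ranges did not overlap in either comparison, and this p is the smallest that 6 against 6 mice allow. Between intact testes and intact ovaries the share was 3.36 points higher in XY mice (exact permutation test, adjusted p = 0.0433) and 1.01 points higher in XX mice (adjusted p = 0.206), and those ranges overlapped. In mice with ovaries the share with several alignments was also higher Intact than GDX, which was not tested. It was 10.7% to 14.4% against 9.19% to 10.3% in XX and 11.5% to 13.4% against 8.59% to 10.1% in XY mice. Unmapped reads averaged 12.2% Intact and 8.44% GDX in XY Te, and 9.67% and 8.73% in XX Te mice. They averaged 8.15% and 8.32% in XX Ov, and 8.43% and 8.74% in XY Ov mice. The reads with several alignments are not assigned to genes in the table, so how many came from Mup transcripts was not tested. Reads overlapping more than 1 gene moved less, with a mean difference of 0.0639 points between XX Te Intact and GDX livers (exact permutation test, adjusted p = 0.530) and of -0.178 points between XY Te Intact and GDX livers (adjusted p = 0.0476). Between intact testes and intact ovaries that share differed by -0.251 points in XX (exact permutation test, adjusted p = 0.0837) and by -0.513 points in XY mice (adjusted p = 0.00866). Set against the reads counted on genes in place of all reads, the XY differences were -0.0223 and -0.342 per 100 gene reads (exact permutation test, adjusted p = 0.827 and 0.182).

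**Figure D2:**
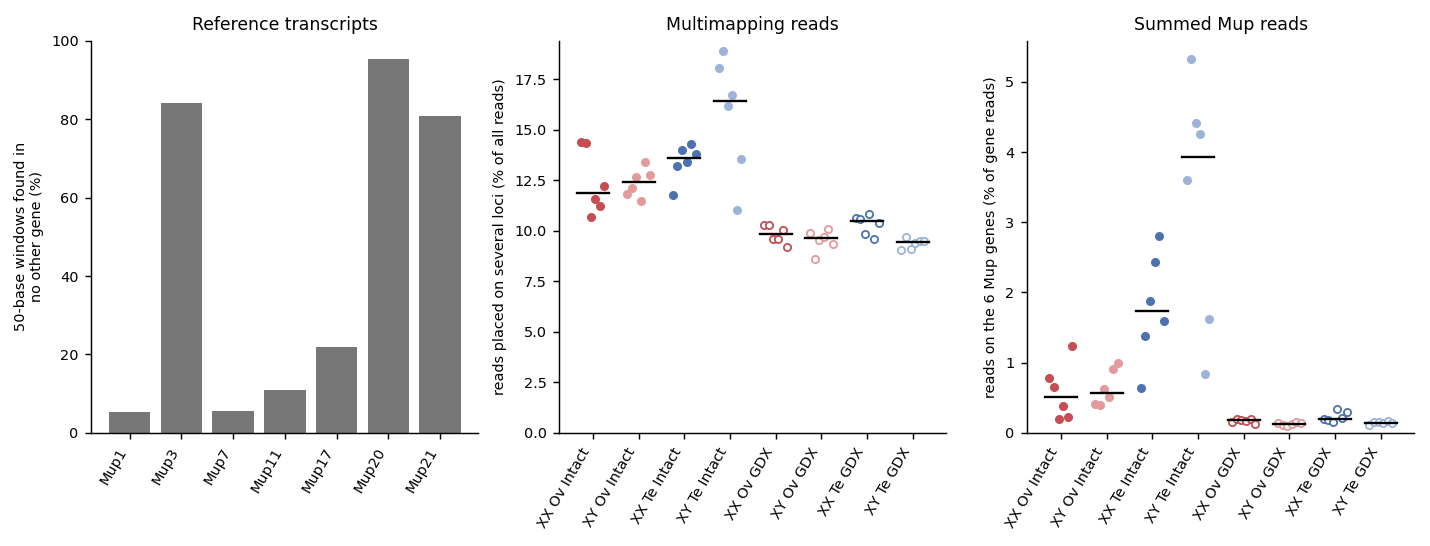
Left, the percent of 50-base windows of each reference transcript found in no other protein-coding gene. Middle and right, per mouse (dot) with the group median (bar), the percent of all reads placed on several loci and the percent of gene reads on the 6 Mup rows. Mup1, Mup7 and Mup11 have 11.0% or fewer windows of their own, and both read shares have their highest group medians in XY Te Intact livers.

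Castration was followed by lower fitted levels of all 6 genes in both chromosome backgrounds. The fitted log2 fold changes from Te Intact to Te GDX in XY mice were -10.54 ± 1.11 (SE) for Mup11, -10.08 ± 0.958 for Mup7, -8.78 ± 0.844 for Mup1, -7.64 ± 0.747 for Mup20, -5.56 ± 0.465 for Mup21 and -4.24 ± 0.441 for Mup3, with a median of -8.21. In XX mice they were -5.51 ± 0.782 for Mup7, -4.89 ± 0.847 for Mup11, -4.49 ± 0.645 for Mup20, -4.12 ± 0.658 for Mup1, -3.60 ± 0.422 for Mup21 and -2.64 ± 0.410 for Mup3, with a median of -4.31. Without XX Te GDX replicate 4 the XX values were -6.49 for Mup7, -5.94 for Mup11 and -4.98 for Mup1, and without XY Te GDX replicate 5 the XY value of Mup20 was -8.49. The medians over all 15414 genes tested were 0.05 in both comparisons. Over all genes, 56.7% passed an adjusted p of 0.05 in XY and 37.1% in XX mice, and nothing is read from the members' counts against these shares because the genes were listed with this contrast known. Of the calls in XY mice 49.3% were positive, against 74.2% with library totals in place of the scaling factors. Expressed as folds of the group medians, the intact level exceeded the GDX level 1178-fold for Mup11, 275-fold for Mup20 and 16.1-fold for Mup3 in XY mice, and 79.2-fold, 16.6-fold and 6.50-fold in XX mice. The Mup11 level in XY Te GDX livers stood for 6 to 32 reads per mouse, so the size of its fall in XY mice is imprecise.

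The intact-gonad difference had the same sign for all 6 genes. Te minus Ov, the fitted log2 differences in XY mice ran from 1.75 ± 0.397 for Mup3 to 6.97 ± 0.832 for Mup7, with a median of 5.82, and without XY Ov Intact replicate 3 that of Mup11 was 7.53 in place of 6.13. In XX mice they ran from 0.93 ± 0.389 for Mup3 to 4.87 ± 0.847 for Mup11, with a median of 4.19. The medians over all genes tested were 0.00118 and -0.06, and the shares of all genes called were 15.5% in XY and 5.82% in XX mice. Positive differences made up 47.5% of the calls in XY and 37.7% in XX mice, against 22.1% and 50.1% with library totals. Mup3 had the lowest value of the 6 genes in both backgrounds. For the other genes whose windows are mostly their own among protein-coding transcripts, Mup20 and Mup21, the XY values were 5.70 ± 0.683 and 4.34 ± 0.437.

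The fitted castration change was further below 0 in XY than in XX mice for each of the 6 genes. The castration change in XX Te minus that in XY Te was 5.65 ± 1.19 on the log2 scale for Mup11, 4.66 ± 1.04 for Mup1 and 4.57 ± 0.988 for Mup7. It was 3.15 ± 0.809 for Mup20, 1.96 ± 0.552 for Mup21 and 1.60 ± 0.549 for Mup3. These differences are built from the values the list was selected on, so they are a description and not an independent test. For the record, edgeR called 5 of the 6 genes, Mup3 being the exception, where 2.21% of all genes were called and 0.564% were called with a positive difference, and nothing is read from that count. The count depended on single mice, with 0 genes called without XX Te Intact replicate 2 or without XY Te GDX replicate 1, 1 without XY Te Intact replicate 2 and 2 without XX Te GDX replicate 4. It was 3 without XX Te GDX replicate 2, XY Te GDX replicate 2 or 3 or XY Te Intact replicate 3 or 4, and 6 without XY Te Intact replicate 5. Mup21 was called in 17 of the 48 fits that each left out 1 mouse, and not with library totals, no filter, at least 10 reads in every mouse or the contrast's groups alone. Without XX Te Intact replicate 2 the differences were 5.42 for Mup11 and 1.45 for Mup3. DESeq2 called 5 genes. With only the 4 Te groups in the edgeR fit none of the 6 passed, and their adjusted p ran from 0.0735 to 0.164. Of all genes called, 25.6% were positive, against 6.0% with library totals and 12.4% with the Mup rows left out of the scaling.

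**Figure D3:**
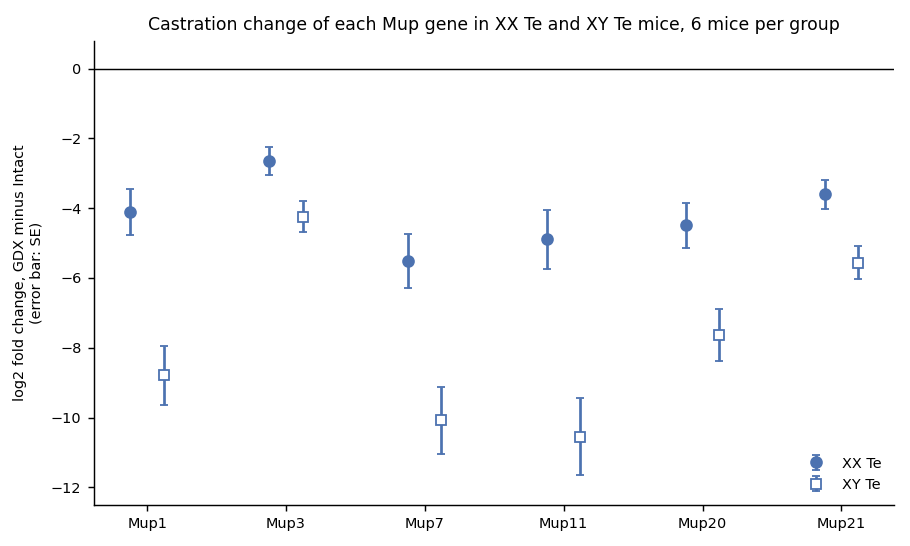
Fitted log2 fold change from Te Intact to Te GDX of each Mup gene in XX Te (filled circles) and XY Te mice (open squares), with bars of 1 SE and 6 mice per group. Each XY value lies below the XX value of the same gene, from 1.60 lower for Mup3 to 5.65 lower for Mup11.

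The same 4 groups were then compared as XX against XY mice within a gonad group. Their values enter the castration differences the list was selected on. The p-values for the Te GDX and Te Intact comparisons are therefore not an independent test. Among castrated mice, XX livers had the higher levels. XX minus XY, the log2 difference in Te GDX mice was 3.20 ± 0.926 for Mup11 (edgeR, adjusted p = 0.00999), 2.76 ± 0.895 for Mup1 (adjusted p = 0.0233), 2.43 ± 0.730 for Mup7 (adjusted p = 0.0132), 1.97 ± 0.581 for Mup20 (adjusted p = 0.0113) and 1.54 ± 0.404 for Mup21 (adjusted p = 0.00405). For Mup3 it was 0.79 ± 0.388 (adjusted p = 0.157). For the record, 5 of 6 genes were called, all positive, where 19.4% of all genes were called and 8.44% were called positive. Nothing is read from that count. For Mup7 5 of the 6 XX mice, and for Mup1, Mup11, Mup20 and Mup21 4 of 6, lay above every XY mouse, and the group ranges overlapped. XX Te GDX replicate 4 was the highest XX mouse for 5 of the 6 genes, and without it Mup20 (1.91, adjusted p = 0.0217) and Mup21 (1.27, adjusted p = 0.0237) passed, and Mup11 (2.15, adjusted p = 0.109), Mup1 (1.90, adjusted p = 0.177) and Mup7 (1.46, adjusted p = 0.162) did not. Without XY Te GDX replicate 1, Mup1 did not pass (adjusted p = 0.0615). Positive differences made up 43.6% of all calls, against 12.2% with library totals and 27.7% without the Mup rows in the scaling, and the 5 Mup genes were called under each of these.

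Other cell types differed in the same comparison. The summed medians of the Kupffer cell markers found (2 of 3 listed) were 179 CPM (82.9 to 210) in XX Te GDX and 370.4 CPM (193 to 566) in XY Te GDX livers, and those of 3 endothelial markers were 131 CPM (90.5 to 159) and 209 CPM (137 to 316). Neutrophil markers (2 of 2) had medians of 0.567 CPM (0.0763 to 1.88) and 7.69 CPM (1.16 to 78.9). Their part in the Mup differences was not tested, and the hepatocyte markers summed to 82444 to 107065 CPM in XX and 94056 to 112903 CPM in XY Te GDX livers.

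With intact testes the XX mice had the lower medians, and no gene passed. XX minus XY in Te Intact mice was -2.45 ± 0.745 for Mup11 (edgeR, adjusted p = 0.0731), -2.13 ± 0.666 for Mup7 (adjusted p = 0.0858) and -1.91 ± 0.559 for Mup1 (adjusted p = 0.0575). It was -1.18 ± 0.565 for Mup20 (adjusted p = 0.354), -0.81 ± 0.388 for Mup3 (adjusted p = 0.354) and -0.41 ± 0.379 for Mup21 (adjusted p = 0.682). Thus 0 of 6 genes were called by edgeR, 5 had an unadjusted p under 0.05, and DESeq2 called Mup7 and Mup11, where 2.1% of all genes were called by edgeR. Leaving out XY Te Intact replicate 5, the mouse with the lowest Mup1, Mup3, Mup7 and Mup20, gave 3 calls, Mup1 (-2.15, adjusted p = 0.0186), Mup7 (-2.37, adjusted p = 0.0364) and Mup11 (-2.66, adjusted p = 0.0405). Leaving out XX Te Intact replicate 5 gave 2 calls, and leaving out XY Ov Intact replicate 3, XX Te GDX replicate 4 or XX Ov Intact replicate 4 gave 1 each. For every gene the ranges of the groups overlapped. Positive differences made up 30.9% of all calls and 45.5% with library totals.

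In mice with ovaries, 1 gene differed between XX and XY. The Ov Intact values enter the intact-gonad differences the list was selected on, so the Ov Intact p-values are not an independent test. After ovariectomy Mup20 was 2.57 ± 0.595 higher in XX than in XY mice on the log2 scale (edgeR, adjusted p = 0.00128), with medians of 140.2 and 33.3 CPM and no overlap. The difference was 1.09 ± 0.409 for Mup21 (adjusted p = 0.0542), whose ranges did not overlap either, and between 0.40 and 0.77 for Mup1, Mup3, Mup7 and Mup11 (adjusted p from 0.466 to 0.766). Thus 1 of 6 was called, positive, where 19.1% of all genes were called and 8.69% were called positive. Mup21 passed with DESeq2 and in 9 of the 48 fits that each left out 1 mouse, namely XX Te Intact replicate 1 or 2, XY Te Intact replicate 2 or 5, XY Ov Intact replicate 1 or 4, XY Te GDX replicate 5 or XX Te GDX replicate 4 or 5, which gives 2 calls. Positive differences made up 45.5% of all calls, 12.1% with library totals and 27.5% without the Mup rows in the scaling. With intact ovaries 0 of 6 genes were called by edgeR and 0 by DESeq2, 0 had an unadjusted p under 0.05, and 7.79% of all genes were called, 25.7% of them positive and 5.6% with library totals. There the XX minus XY values ran from -1.20 ± 0.756 for Mup11 to 0.31 ± 0.655 for Mup7, and that of Mup3 was 0.00334 ± 0.386. The intervals of 1 SE are wide, and these values do not show that XX and XY mice with ovaries had equal levels. In the Ov GDX groups neutrophil markers had medians of 1.03 CPM (0.574 to 1.88) in XX and 22.4 CPM (4.13 to 44.8) in XY livers, and Kupffer cell markers (2 of 3) 150 CPM (131 to 224) and 445 CPM (299 to 558), neither with overlap. Endothelial markers (3 of 3) were at 107 CPM (90.6 to 178) and 216 CPM (157 to 257). Their part in the Mup20 difference was not tested. Neutrophil markers were at a median of 124 CPM (40.2 to 693) in XY Ov Intact against 7.15 CPM (1.29 to 17.6) in XX Ov Intact livers, and their part was not tested.

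**Figure D4:**
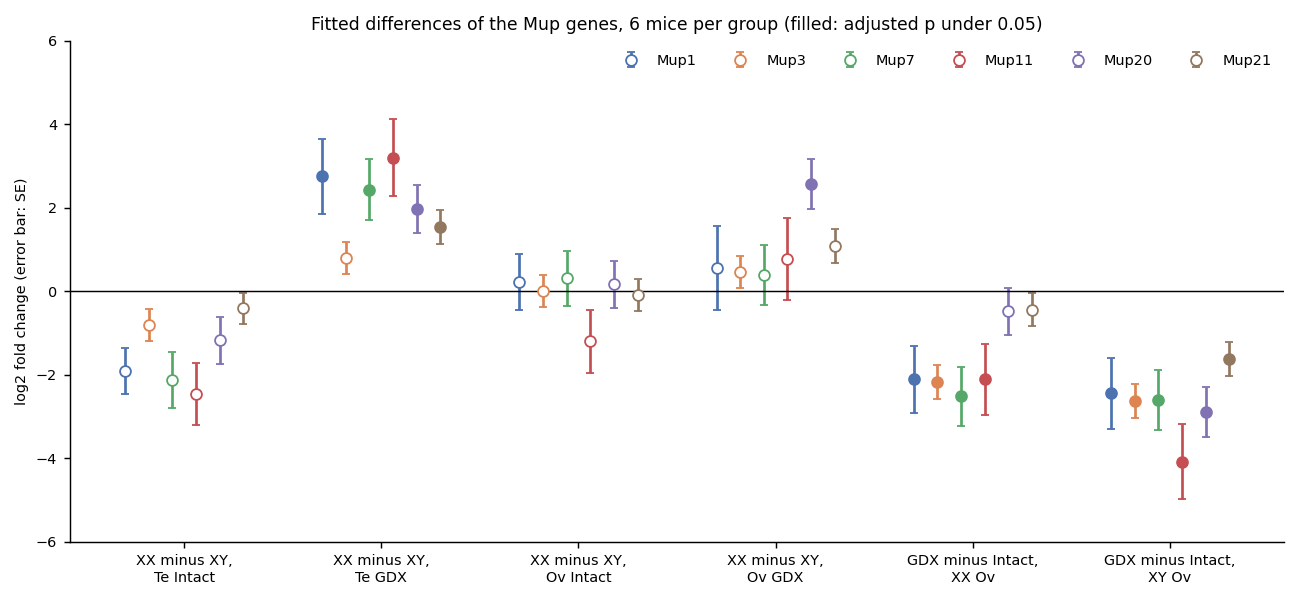
Fitted log2 fold changes of the 6 Mup genes with bars of 1 SE in 6 comparisons, filled where the adjusted p was under 0.05 (edgeR, 6 mice per group). The 6 XX minus XY values are below 0 with intact testes and above 0 after castration, and the GDX minus Intact values with ovaries are all below 0.

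Ovariectomy was followed by lower levels as well. The Ov Intact values enter the intact-gonad differences the list was selected on. The p-values and calls of the ovariectomy comparisons in XY and XX mice are therefore not an independent test. In XY Ov mice 6 of 6 genes fell, by 4.08 ± 0.901 for Mup11 on the log2 scale (edgeR, adjusted p = 0.000205), 2.89 ± 0.603 for Mup20 (adjusted p = 9.85e-05), 2.63 ± 0.410 for Mup3 (adjusted p = 1.67e-06) and 2.61 ± 0.716 for Mup7 (adjusted p = 0.00205). Mup1 fell by 2.45 ± 0.843 (adjusted p = 0.0119) and Mup21 fell by 1.63 ± 0.410 (adjusted p = 0.000868). Of all genes 59.4% were called in this comparison and 29.2% were called negative, and the 6 calls held in each of the 48 fits without 1 mouse. For Mup3, Mup7 and Mup20 no GDX mouse reached the lowest intact mouse.

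In XX Ov mice all 6 fitted changes were below 0, and 4 of 6 genes were called. The log2 change was -2.52 ± 0.709 for Mup7 (edgeR, adjusted p = 0.00286), -2.18 ± 0.403 for Mup3 (adjusted p = 2.53e-05), -2.11 ± 0.800 for Mup1 (adjusted p = 0.0235) and -2.11 ± 0.853 for Mup11 (adjusted p = 0.0337). It was -0.48 ± 0.561 for Mup20 (adjusted p = 0.479) and -0.45 ± 0.395 for Mup21 (adjusted p = 0.342), and the difference between XX and XY mice in the ovariectomy change was not tested. Of all genes 55.1% were called and 28.6% were called negative. Without XX Ov Intact replicate 1 or 6 the calls were Mup3 and Mup7 only, Mup1 then having adjusted p = 0.0821 and 0.0895 and Mup11 adjusted p = 0.119 and 0.0843. Mup11 also missed the threshold without XX Ov GDX replicate 1 (adjusted p = 0.0572), 4 (0.052) or 6 (0.0709), which leaves 3 calls. For Mup3 the Intact and GDX ranges did not overlap, and for the other 5 genes they did. Of all calls with ovaries removed 48.1% were positive in XX and 50.9% in XY mice, against 61.2% and 68.0% with library totals.

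After GDX, mice that once had testes were compared with mice that once had ovaries, and no gene passed. The Te GDX values enter the castration differences the list was selected on, so these p-values are not an independent test. Te minus Ov in XX GDX mice was 2.09 ± 0.852 for Mup11, 1.80 ± 0.815 for Mup1, 1.53 ± 0.698 for Mup7 and 0.86 ± 0.395 for Mup21 on the log2 scale, each with an adjusted p of 1.0 (edgeR) and an unadjusted p under 0.05. Mup3 was at 0.47 ± 0.387 and Mup20 at 0.36 ± 0.560. In XY GDX mice the 6 values lay between -0.51 ± 0.738 for Mup7 and 0.95 ± 0.569 for Mup20. Thus edgeR and DESeq2 called 0 of 6 genes in either background, with 4 genes at an unadjusted p under 0.05 in XX and 0 in XY mice, where 0.0454% of all genes were called in XX and 0.026% in XY mice. The Mup3 medians of the 4 GDX groups ran from 1245 to 1848 CPM.

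The other Mup rows mostly moved the same way as the 6 genes, and as they share sequence with them they are described only. Of 26 rows, 19 had enough reads to enter the fit, and the 3 with the highest mean over all mice were Mup14 (107 CPM), Mup18 (27.9 CPM) and Mup16 (25.1 CPM). Mup14 had a median of 716 CPM (121 to 1279) in XY Te Intact, 185 CPM (38.9998 to 325) in XX Te Intact, 0.988 CPM (0.720 to 1.47) in XY Te GDX and 2.09 CPM (1.23 to 17.4) in XX Te GDX livers. Mup18 showed another pattern in XX mice, with 25.6 CPM (2.17 to 78.5) in XX Ov Intact livers against 35.4 CPM (9.81 to 49.0) in XX Te Intact livers, which overlap. A row with few reads could enter the fit through a single group where it was high, so its fall from that group can follow from the filter. The counts of signs below are therefore a description, and nothing is read from them. Of the 19 rows, 19 had a negative castration change in XY mice (median -6.16) and 18 in XX mice (median -3.19). With intact gonads, Te minus Ov was positive in 17 of 19 rows in XY mice (median 3.11) and in 14 of 19 in XX mice (median 1.06), Mup18 being among the 5 negative rows. XX exceeded XY in 19 of 19 among Te GDX mice (median 1.77), and the castration change in XX minus that in XY was positive in 19 of 19 (median 2.57).

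A list of 18 hormone receptors, growth hormone signalling genes and liver transcription factors linked to Mup or sex-biased liver expression was examined next. The list was chosen with earlier results of these data known. Its members were tested across the same fits, and their p-values and counts of calls are therefore not an independent test. Cux2, a transcription factor typical of female liver, had a median of 0.406 CPM (0.189 to 0.618) in XY Te Intact and 0.518 CPM (0.223 to 1.97) in XX Te Intact livers. After castration it was at 69.1 CPM (51.6 to 97.8) in XY and 20.7 CPM (14.3 to 67.1) in XX livers, and with intact ovaries at 11.2 CPM (3.55 to 78.0) and 22.7 CPM (7.80 to 43.7). No Te Intact mouse reached any mouse of these groups.

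After castration Cux2 was higher by 7.04 ± 0.655 in XY and 5.03 ± 0.589 in XX mice on the log2 scale (edgeR, adjusted p = 4.81e-11 and 3.97e-08). Prlr, the prolactin receptor, rose by 1.60 ± 0.208 in XY and 1.27 ± 0.206 in XX mice (adjusted p = 7.06e-08 and 1.37e-05). Esr1, the oestrogen receptor alpha, rose by 1.65 ± 0.182 and 1.40 ± 0.180 (adjusted p = 2.46e-09 and 2.78e-07). These 3 genes moved opposite to the Mup genes in both backgrounds. Ghr, the growth hormone receptor, fell by 0.73 ± 0.117 in XY and 0.44 ± 0.117 in XX mice (adjusted p = 2.94e-06 and 0.00356). Bcl6, a repressor that competes with STAT5 in liver, fell by 0.76 ± 0.324 and 0.87 ± 0.327 (adjusted p = 0.0432 and 0.033). In all, 7 of 18 genes were called in XY mice, 5 higher and 2 lower, and 10 of 18 in XX mice, 8 higher and 2 lower, where 56.7% and 37.1% of all genes were called.

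Between intact testes and intact ovaries, 4 of 18 genes were called in XX mice and 7 of 18 in XY mice, where 5.82% and 15.5% of all genes were called. Te minus Ov was -4.95 ± 0.589 in XX and -5.67 ± 0.646 in XY mice for Cux2 on the log2 scale, and Bcl6 was higher with testes by 1.80 ± 0.337 and 1.64 ± 0.333 (edgeR, adjusted p from 1.42e-08 to 0.00059). Hnf4a, a main hepatocyte transcription factor, was higher with testes in XY mice by 0.62 ± 0.166 (adjusted p = 0.00831), and Thrb, a thyroid hormone receptor, by 0.38 ± 0.133 (adjusted p = 0.0451). After ovariectomy 8 of 18 genes were called in XX and 11 of 18 in XY mice, where 55.1% and 59.4% of all genes were called. Esr1 was called higher and Ghr lower in both backgrounds, and Cux2 and Prlr higher in XY mice. These calls had the same directions as after castration, and Cux2 and Prlr were not called in XX mice after ovariectomy. Bcl6 rose by 1.41 ± 0.335 in XX and 1.09 ± 0.330 in XY mice after ovariectomy (adjusted p = 0.000569 and 0.00467), the opposite direction to its change after castration.

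For the castration change in XX minus that in XY, Cux2 was the gene of the list with an unadjusted p under 0.05, at -2.01 ± 0.920 (edgeR, adjusted p = 0.283), and did not pass.

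**Figure D5:**
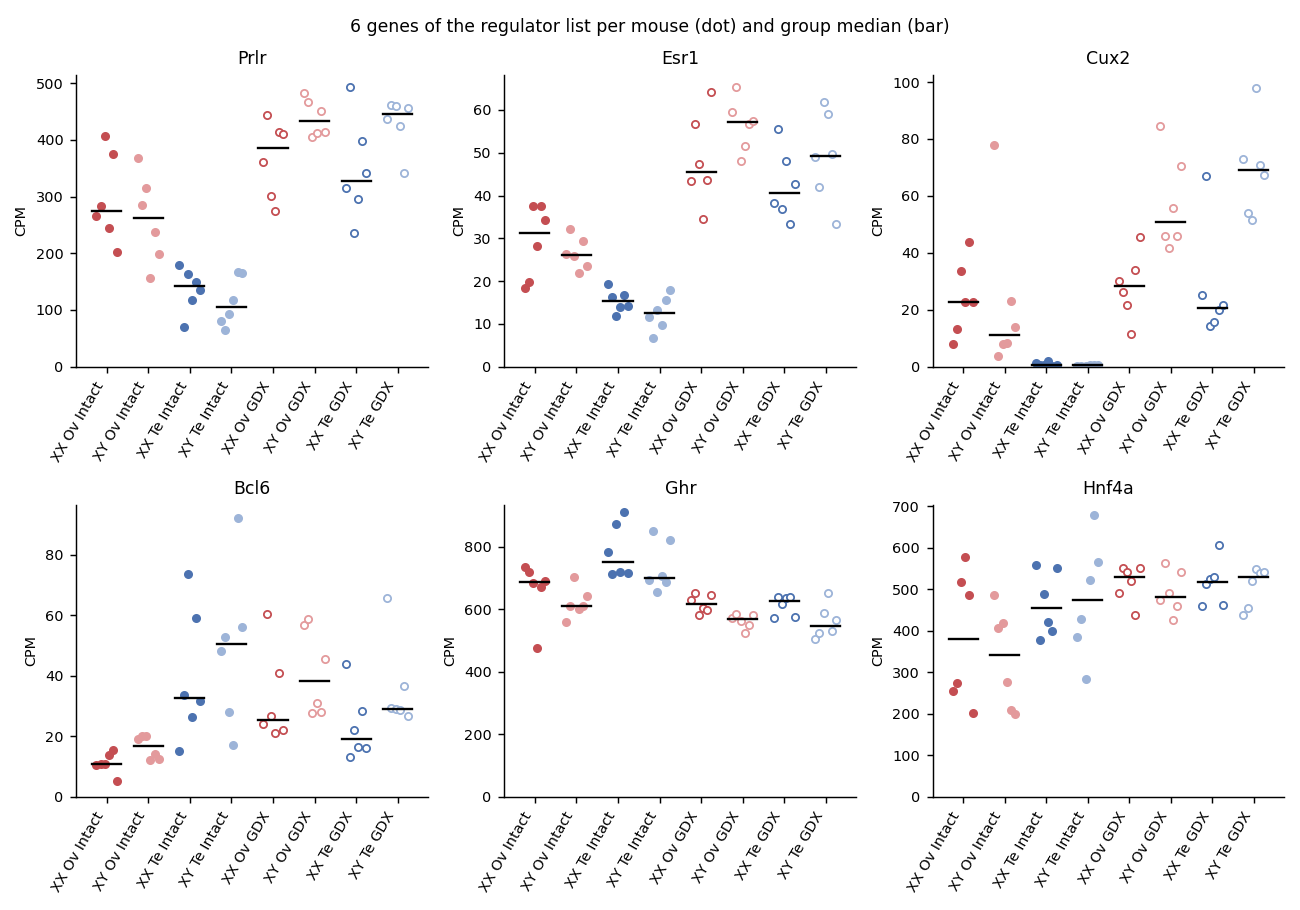
CPM of Prlr, Esr1, Cux2, Bcl6, Ghr and Hnf4a in each of 8 groups, with a dot per mouse (filled for Intact, open for GDX) and a bar at the group median of 6 mice. Cux2 lies at or under 1.97 CPM in every mouse with intact testes and at or above 3.55 CPM in every mouse of the other 6 groups.

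Among the 6 Mup genes, Mup7 and Mup11 had the most alike profiles, with a root mean square difference of 0.288 between their centred log2 group means over the 8 groups. Mup1 and Mup20 lay 0.501 apart, Mup21 lay nearest to Mup20 at 0.724, and Mup3 lay nearest to Mup21 at 0.992. The most distant pair was Mup3 and Mup11, at 2.02. Mup7 and Mup11 share most of their 50-base windows with other copies, and the part of shared reads in their likeness was not tested.

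Without a Mup symbol, 12849 genes were ranked by the same distance to the mean profile of the 6 Mup genes. Slco1a1, an organic anion transporter of the hepatocyte membrane, was nearest at 0.469, with medians of 634 CPM in XY Te Intact and 335 CPM in XX Te Intact livers and 3.69 CPM and 7.97 CPM after castration. Elovl3, an enzyme that lengthens fatty acids, lay at 0.776, with 138 CPM and 96.5 CPM with intact testes and 2.90 CPM and 7.56 CPM after castration. Slc22a28, a transporter gene, lay at 0.886 and the pseudogene Serpina4-ps1 at 0.898. The second of the 5 nearest, at 0.502, is a row that the name table pairs with no symbol, so it could not be screened for membership of the Mup family. With group medians in place of means, 4 of the 5 were shared and Cyp4a12a took the place of Serpina4-ps1.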

How the data were processed

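Liver RNA was sequenced as single reads of 50 bases, and the authors counted reads per gene with STAR 2.7.10a on GRCm39, per the labels and the study's methods. Their submitters' notes also name DESeq2 1.36.0. The deposited values are raw read counts for 55414 genes in 48 mice. Reads placed on several loci stand in 4 summary lines together with ambiguous, unannotated and unmapped reads, and were kept out of library sizes. Symbols were paired with 31020 identifiers (56.0%). Levels are CPM, computed from the deposited counts over the reads on genes, and 3 reads set the limit of detection, which covers counting error only.

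Tests used the edgeR 4.0.16 quasi-likelihood test in R 4.3.3, with TMM scaling, filterByExpr, 1 mean per group and all 48 mice, on 15414 genes, with Benjamini-Hochberg adjustment over all of them and a threshold of 0.05. The script was tested on simulated data. Read shares were compared by exact permutation (scipy 1.17.1). Alternatives were DESeq2 1.42.0 (size factors, Wald test), library totals, scaling without Mup rows, no filter, at least 10 reads in every mouse, the contrast's groups alone, 47 mice and leaving out each mouse. Sequence windows came from GENCODE protein-coding transcripts on NCBIM37 and promoters from RefSeq on GRCm38.p6. Neither is the build of the counts, so windows show likeness between genes and not the counting itself.

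The Mup genes, the regulator list and the markers were chosen with earlier results of these data known. Described besides them are the 3 other Mup rows with the highest mean CPM and the 5 genes nearest in profile. Those 5 were taken from the genes without a Mup symbol whose mean log2 CPM was 0 or higher. Mice of a group carried separate identifiers, and no pair of libraries within a group was near-identical (lowest chi-square per gene 7.74). A gene of the regulator list is counted among its 18 but not reported here.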

Additional observations from a re-analysis of the deposited data

Results flagged for a closer look

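In 6 of 64 groups of 6 mice that were examined, 1 mouse stood apart from the rest. Its gap to the nearest mouse exceeded Dixon's critical share of the whole range, which chance gives in about 1 in 20 groups of normally distributed values. The flagged values were CPM without logarithm, all were the highest of their group, and several came from the same mouse. That rate is therefore not set against the number of flags. XX Te GDX replicate 4 stood above the others for 3 genes, with Mup1 at 7.30 CPM (others 0.391 to 2.39), Mup7 at 49.4 CPM (others 2.83 to 11.0) and Mup11 at 26.3 CPM (others 1.40 to 9.66). For Mup11, XY Ov Intact replicate 3 stood at 70.4 CPM (others 1.41 to 12.7) and XY Te Intact replicate 2 at 2769.8 CPM (others 246 to 1116). For Mup20, XY Te GDX replicate 5 stood at 215 CPM (others 20.6 to 53.0).

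The castration change in XX minus that in XY was past the threshold for 5 genes, at 5.65 for Mup11, 4.66 for Mup1, 4.57 for Mup7, 3.15 for Mup20 and 1.96 for Mup21 on the log2 scale. The genes were listed on their castration differences in these mice, so this is a description and not an independent test, and the calls depended on single mice as given above.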

How the results depend on the processing

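Of the values of single Mup genes under the settings other than leaving out a mouse, 572 kept direction and side of the threshold, 14 lost the call, 8 gained it and 4 reversed, and in the fits lacking 1 mouse the numbers were 3639, 60, 18 and 21, with 6 further described values moved by more than their error, Mup3 in the intact-gonad difference of XX mice (1.44 without XX Ov Intact replicate 6) and the 5 given beside their results. The number of Mup genes called moved by over 1.5 times as follows. For XX against XY with intact testes it was 2 with DESeq2 and 2 with 47 mice. For XX against XY after castration it was 3 with no filter and 3 with at least 10 reads in every mouse, a setting that leaves 4 of the genes. After ovariectomy it was 2 with DESeq2 and 3 with the contrast's groups alone. For ovariectomy in XX mice it was 2 with no filter and 2 with at least 10 reads. For the castration change in XX minus that in XY it was 3 with no filter, 2 with at least 10 reads and 0 with the contrast's groups alone. Beyond the fewer genes kept by the 10-read filter, the cause was not tested. The median castration change in XY mice was -6.54 with at least 10 reads. The share of ambiguous reads per 100 gene reads, Intact minus GDX and Te minus Ov in XY mice, was -0.0223 and -0.342. Over the 48 fits that each lacked 1 mouse, the counts ran from 0 to 3 (XX against XY, Te Intact), 2 to 5 (Te GDX), 1 to 2 (Ov GDX), 2 to 4 (ovariectomy in XX) and 0 to 6 (castration change in XX minus that in XY). In Ov Intact mice XX minus XY had no stable sign: Mup3 was at -0.15 with library totals, -0.019 with no filter, -0.038 with at least 10 reads and -0.0043 with the contrast's groups alone, and in fits lacking a mouse Mup3 ran from -0.49 to 0.27, Mup1 from -0.20 to 0.47, Mup7 from -0.042 to 0.54, Mup11 from -1.67 to 0.21, Mup20 from -0.094 to 0.37 and Mup21 from -0.26 to 0.25. Former gonad in XY GDX mice ran from -0.73 to 0.069 for Mup11. Library totals moved the median of all genes to 0.38 for castration and 0.32 for ovariectomy in XY mice, 0.12 and 0.21 in XX mice and -0.17 for the castration change in XX minus that in XY. No paired analysis was possible because replicates were numbered in accession order only. Depth limits Mup1 most, at 3 to 11 reads per mouse in XY Te GDX livers.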
